A study of Mus musculus with 8 samples.

Results

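Wnt signalling genes were compared in whole tibialis anterior (TA) muscle of mice with and without Klotho. They were chosen by symbol, with earlier results of these data known. The names taken were Wnt ligands, their secretion factors, secreted antagonists, Frizzled receptors, co-receptors, Dishevelled proteins, the beta-catenin destruction complex, TCF/LEF factors and feedback regulators. The mouse annotation holds 61 such names, and 45 of them are among the 12551 genes that the deposited counts cover. The other 16 were not analysed here. They are 12 of the 19 Wnt ligands (*Wnt1*, *Wnt2*, *Wnt2b*, *Wnt3*, *Wnt3a*, *Wnt7a*, *Wnt7b*, *Wnt8a*, *Wnt8b*, *Wnt9b*, *Wnt10a* and *Wnt10b*), with *Dkk1*, *Dkk4*, *Rnf43* and *Lef1*.

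Klotho is a protein of kidney and other tissues whose loss gives mice a short life with features of early ageing. RNA sequencing compared 4 wild-type (WT) male mice with 4 male littermates homozygous for a Klotho null allele (KL-/-), all 7 weeks old and bred on a mixed background. The null allele was carried by every tissue and not by muscle alone. Each library came from 1 whole TA muscle, a fast-twitch muscle of the lower leg, and 100 ng of RNA. Libraries are called mRNA in the methods and total RNA in the sample records. *Kl* itself is not among the counted genes, so in these counts the genotypes rest on the labels. The paper reports genotyping by PCR and no detectable *Kl* mRNA in KL-/- muscle by qRT-PCR.

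Wnt proteins are lipid-modified ligands that act over short distances through Frizzled receptors. With the co-receptors LRP5 and LRP6 they stop a complex of Axin, APC, GSK3 and casein kinase 1 from marking beta-catenin for destruction, and beta-catenin then works with TCF/LEF factors on target genes. With ROR and RYK receptors they steer cell polarity and movement without beta-catenin. In skeletal muscle the pathway is known for its part in the nerve-muscle synapse, in satellite cells and in the choice of connective tissue cells between fates.

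Calls were checked under 17 alternatives, of which the fit with no filter repeats the main fit. The ligand *Wnt4* (higher in KL-/- muscle) and the ligand carrier *Wls* (lower) were the genes of this set whose calls held under each. The sequences just before their starts, from RefSeq on GRCm38.p6, are shown because they let these genes be compared at the DNA level. The *Wnt4* stretch is chr4:137277385-137277634 and the *Wls* stretch is chr3:159839400-159839649, both on the plus strand and each 250 bases that end at the last base before the RefSeq start. Capitals mark an E-box (CANNTG), the core motif of MyoD and other basic helix-loop-helix factors, which was chosen after the values had been seen.
Wnt4: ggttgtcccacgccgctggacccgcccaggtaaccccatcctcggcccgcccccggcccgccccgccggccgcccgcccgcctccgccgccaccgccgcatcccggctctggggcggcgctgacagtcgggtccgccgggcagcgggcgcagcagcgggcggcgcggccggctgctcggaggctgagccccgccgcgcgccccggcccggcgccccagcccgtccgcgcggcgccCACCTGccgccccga
Wls: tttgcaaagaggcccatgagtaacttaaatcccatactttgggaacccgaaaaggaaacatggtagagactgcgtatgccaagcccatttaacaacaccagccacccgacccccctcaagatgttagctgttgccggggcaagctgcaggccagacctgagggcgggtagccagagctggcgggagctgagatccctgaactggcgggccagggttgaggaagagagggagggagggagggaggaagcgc
The *Wnt4* stretch was 85.2% G or C with 44 CG pairs and held 1 E-box, next to its end, whereas the *Wls* stretch was 58.0% G or C with 8 CG pairs and held 0. Neither held the TCF/LEF core, CTTTGAT or CTTTGAA on either strand, which stands in 7.48% of 32851 mouse promoter windows in the RefSeq table. Over the windows of 30 matched members it stood in 3 of 36, those of *Gsk3a*, *Wnt11* and *Wnt5b*. An E-box stood in 19 of the 36 windows (52.78%) against 66.22% of all windows. These are matches of letters and say nothing of whether a factor binds there.

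Reads counted on genes came to 20860262 to 29273758 per library. Values are CPM, counts relative to the library's total as scaled with edgeR's TMM factors, so 3 counts, taken as the floor, are worth 0.105 to 0.143 CPM. Genotypes were compared in 1 fit over all genes with edgeR's quasi-likelihood test, and a gene was called at a Benjamini-Hochberg adjusted p (FDR) under 0.05. Each library is labelled as a separate mouse. The p-values set the genotype difference against the spread between these muscles, which edgeR estimates partly from the other genes. The batch date in the labels differs for KL-/- replicate 3 alone, and that date and that mouse cannot be told apart. The 8 myofiber markers checked, among them *Ckm*, *Acta1* and *Myh4*, summed to 126700 to 141700 CPM in WT and 140100 to 177900 CPM in KL-/- libraries.

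Of the 45 genes, 6 were called, 4 higher and 2 lower in KL-/- muscle. *Wnt4*, *Ryk*, *Dvl1* and *Fzd10* were higher, and *Wls* and *Fzd2* were lower. That is 13.3% of them, and 14% of all genes tested were called, 7.35% higher and 6.67% lower. The share is near the background and is not a result about the pathway as a whole. In 8 of the 45 (17.8%, against 19.7% of all genes) every KL-/- muscle lay on one side of every WT muscle, namely in the 6 called genes, in *Wnt5a* on the lower side and in *Gsk3b* on the higher side. The median log2 fold change of the 45 was 0.02, against -0.02 for all genes, and 23 were positive and 22 negative. At an unadjusted p under 0.05 stood 14 of the 45 and 4031 of the 12551.

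**Figure D1:**
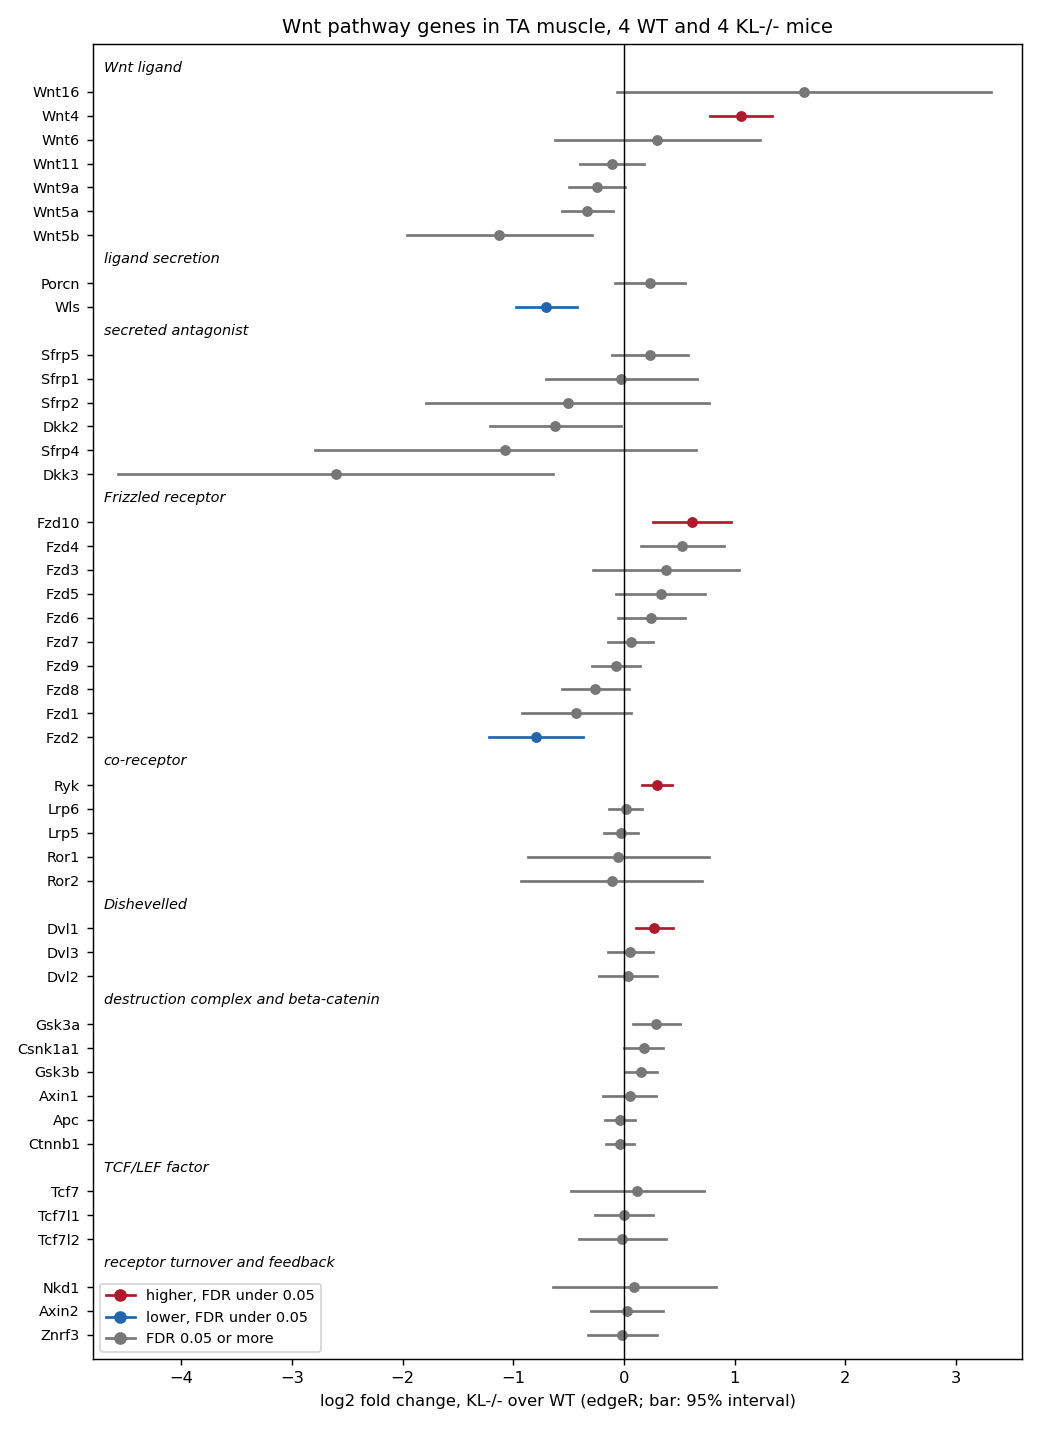
Log2 fold change (KL-/- over WT, horizontal axis) of the 45 Wnt pathway genes grouped by role, with 95% intervals from edgeR and 4 mice per genotype. The 4 red points are called higher, the 2 blue points are called lower, and the 39 grey points are not called, with the widest intervals among secreted antagonists and *Wnt16*.

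The count moved with single libraries. It fell to 3 genes (*Wnt4*, *Ryk* and *Wls*) without WT replicate 3, KL-/- replicate 3 or KL-/- replicate 4, and it was 9 without KL-/- replicate 2. The share called over all genes moved too, to 6.17%, 6.07%, 6.2% and 22% in the same order, against 14% with all libraries. *Wnt4*, *Wls* and *Ryk* were called in each of the 8 fits that left out 1 library. Library totals used instead of TMM factors moved the median of all genes to -0.13 and the split from 4 higher and 2 lower to 1 higher (*Wnt4*) and 4 lower (*Wls*, *Fzd2*, *Wnt5a* and *Wnt5b*). With them 20.9% of all genes were called.

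The highest levels of the set belonged to cytoplasmic components. Per kilobase of counted exon, which lets genes be compared, the highest levels in WT muscle were those of *Csnk1a1* at 86.8 ± 5.93 CPM per kb (SD, n = 4) and *Ctnnb1* at 76.6 ± 3.83. *Gsk3a* at 46.9 ± 5.22 and *Dvl1* at 45.8 ± 3.17 followed and differed from each other by less than their SD, as did *Ryk* at 20.3 ± 1.06 and *Fzd4* at 19.5 ± 5.18 after them. The most abundant ligand in WT muscle, *Wnt9a*, stood at 6.28 ± 0.882 CPM per kb. The lowest of the 45 was *Fzd3* at 0.0541 ± 0.0123.

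**Figure D2:**
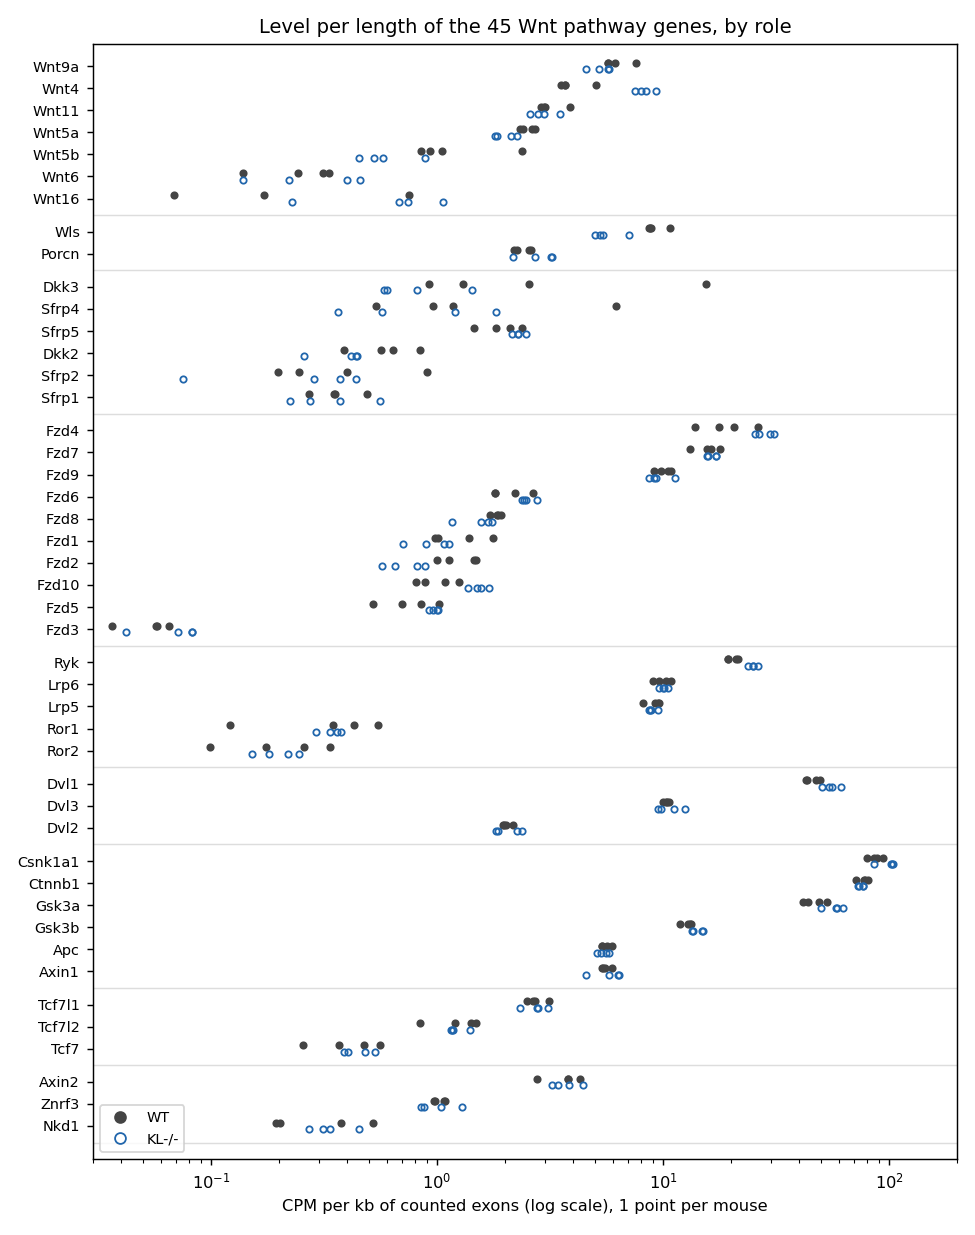
Level of each of the 45 Wnt pathway genes in CPM per kilobase of counted exons on a log axis, with 1 point per mouse (filled, WT; open, KL-/-) and genes grouped by role in the order of the list of roles, from ligands to feedback genes. *Csnk1a1* and *Ctnnb1* lie highest and *Fzd3* lowest; the WT replicate 4 value of *Wnt16* is 0 and cannot be drawn on this axis.

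Among the 7 counted ligands *Wnt4* rose and the other 6 did not pass edgeR's quasi-likelihood test. *Wnt4* is a secreted ligand known from kidney and reproductive tract development and from the forming nerve-muscle synapse. It lies on chromosome 4, 137277635 to 137299501 of mm10, and no other annotated gene overlaps it. In WT replicates 1 to 4 it was at 19.4, 13.5, 14.0 and 14.1 CPM, and in KL-/- replicates 1 to 4 at 30.3, 32.0, 28.8 and 35.5 CPM. The lowest KL-/- muscle lay well above the highest WT muscle, and WT replicate 1 stood above the other 3 WT muscles, which were close together. The log2 fold change was 1.06 (SE 0.12, 95% interval 0.78 to 1.33, FDR = 0.00245 by edgeR), a 2.08-fold rise. With 1 library left out at a time it ranged from 1.00 to 1.19, and it was 1.10 (FDR = 0.00819) within the 7 libraries of the shared batch date.

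The other abundant ligands did not pass the test. *Wnt9a*, a ligand known from joint formation, was at 18.9, 19.0, 20.3 and 25.1 CPM in WT and 19.0, 15.1, 18.9 and 17.2 CPM in KL-/- replicates 1 to 4, with overlap between the genotypes. Its log2 fold change was -0.25 (FDR = 0.168). *Wnt11*, a ligand of cell movement and polarity, had a log2 fold change of -0.11 with a 95% interval of -0.40 to 0.18.

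*Wnt5a*, the best known ligand of signalling without beta-catenin, was lower in every KL-/- muscle than in any WT muscle but did not pass the test. Its values were 11.9, 11.5, 10.5 and 10.2 CPM in WT and 7.88, 9.88, 8.04 and 9.31 CPM in KL-/- replicates 1 to 4. The nearest muscles, WT replicate 4 and KL-/- replicate 2, were only slightly apart. The log2 fold change was -0.33 (SE 0.10, FDR = 0.0605 by edgeR), and the FDR was 0.0317 without KL-/- replicate 2 and 0.0439 by DESeq2. Those fits called 22% and 19.6% of all genes. *Wnt5a* was called in 1 of the 8 fits that left out 1 library, and the edgeR FDR reached 0.152 in them. In edgeR the FDR was 0.0154 with library totals and 0.123 with the replicate number as a block. An annotated antisense gene overlaps *Wnt5a*, and whether the counting used strand is not given in the sources used here, so reads of the pair cannot be told apart.

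Its relative *Wnt5b* was at 2.25, 2.78, 2.48 and 6.31 CPM in WT and 1.53, 2.34, 1.20 and 1.40 CPM in KL-/- replicates 1 to 4. WT replicate 4 was far above the rest, and KL-/- replicate 2 lay within the WT range. The log2 fold change of -1.13 (FDR = 0.0717) became -0.64 without WT replicate 4. With all libraries, DESeq2 (FDR = 0.0235) and the likelihood ratio test (FDR = 0.0282) called *Wnt5b* lower. *Wnt5b* shares part of its locus with *Fbxl14* on the other strand.

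The 2 remaining ligands were scarce. *Wnt6* lay between 0.286 and 0.942 CPM in all 8 libraries, with overlap between the genotypes (log2 fold change 0.30, FDR = 0.65). *Wnt16*, a ligand known from bone, was at 0.286, 1.25, 0.114 and 0 CPM in WT and 1.78, 0.382, 1.24 and 1.13 CPM in KL-/- replicates 1 to 4. The 0 of WT replicate 4 allows up to 0.108 CPM by counting error alone. The *Wnt16* log2 fold change was 1.63 (FDR = 0.169) and became 3.15 (FDR = 0.0437) without WT replicate 2.

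The make-up of the ligand transcripts did not overlap between genotypes for *Wnt4*, *Wnt9a*, *Wnt5a* or *Wnt5b*. Per length, *Wnt4* gave 22.5% ± 4.35 (SD, n = 4) of the summed level of the 7 ligands in WT and 41.1% ± 2.82 in KL-/- muscle, with ranges of 19.2% to 28.7% and 38.7% to 44.7%. *Wnt9a* gave 35.3% ± 3.69 and 26.3% ± 2.95, *Wnt5a* 14.3% ± 1.42 and 9.97% ± 1.07, and *Wnt5b* 4.80% to 12.4% in WT and 2.33% to 4.42% in KL-/- muscles. The shares of a muscle sum to a whole, so a higher share of *Wnt4* lowers those of the others, and the level of *Wnt9a* itself overlapped between genotypes. *Wnt9a* was the leading ligand in each WT muscle and *Wnt4* in each KL-/- muscle. The summed level was 17.8 ± 1.15 CPM per kb in WT and 20.1 ± 0.571 in KL-/- muscle.

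**Figure D3:**
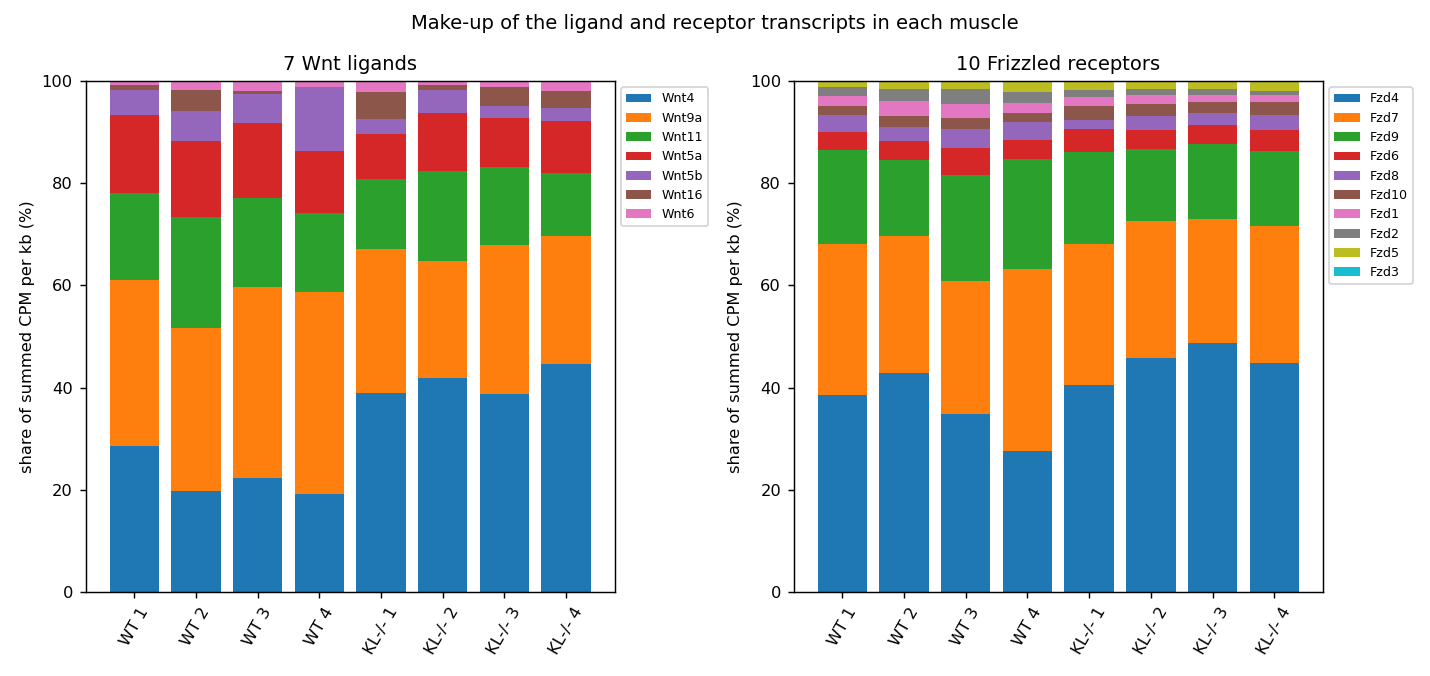
Share of each gene in the summed CPM per kb of its family (vertical axis, %) for the 7 Wnt ligands (left) and the 10 Frizzled receptors (right), with 1 bar per mouse. *Wnt4* (lowest segment, left) takes 19.2% to 28.7% of the ligand bars in WT and 38.7% to 44.7% in KL-/- muscles; *Fzd4* (lowest segment, right) takes 27.6% to 42.9% and 40.6% to 48.7%.

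*Wls* changed in the opposite direction to *Wnt4*. *Wls* encodes the membrane protein that carries lipid-modified Wnt proteins from the Golgi to the cell surface, and the gene lies on chromosome 3, 159839695 to 159935175 of mm10, with an unverified transcript and a small nuclear RNA gene inside its bounds. It was at 24.2, 23.9, 24.4 and 29.7 CPM in WT and 15.0, 19.6, 14.6 and 13.8 CPM in KL-/- replicates 1 to 4. All KL-/- muscles lay below all WT muscles, with KL-/- replicate 2 nearest to them and WT replicate 4 above the other WT muscles. The log2 fold change was -0.70 (SE 0.12, 95% interval -0.97 to -0.43, FDR = 0.00863 by edgeR), so the level was 0.615 times that of WT. It stayed between -0.81 and -0.62 with 1 library left out at a time and was -0.67 (FDR = 0.0287) within the shared batch date. *Porcn*, the enzyme that adds the lipid to Wnt proteins, was at 6.63 ± 0.58 CPM in WT and 7.78 ± 1.38 in KL-/- muscle (log2 fold change 0.24, FDR = 0.271).

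In bulk muscle a smaller number of cells of a type and less RNA per cell cannot be told apart, and levels of cell type markers differed between the groups. The 10 fibroblast and fibro-adipogenic progenitor markers checked (*Pdgfra*, *Ly6a*, *Cd34*, *Dcn*, *Lum*, *Col1a1*, *Col3a1*, *Pi16*, *Dpp4* and *Mfap5*) had negative log2 fold changes in 10 of 10 genes, with a median of -0.93, and 3 of them (*Dcn*, *Lum* and *Dpp4*) were called lower. Their summed level was 828 to 3027 CPM in WT and 463 to 1355 CPM in KL-/- muscles, which overlap, but *Col1a1* and *Col3a1* made up 47.5% to 78.3% of that sum in each muscle. The other 8 markers summed to 435 to 736 CPM in WT and 225 to 410 CPM in KL-/- muscles, without overlap (a sum chosen after the data were seen). Of the 6 tendon markers 2 (*Fmod* and *Thbs4*) were called lower, with sums of 183 to 227 CPM in WT and 56.0 to 145 CPM in KL-/- muscles. Of the 8 macrophage and leukocyte markers 2 (*Adgre1* and *Itgam*) were called lower, and their sums of 36.4 to 82.9 and 26.9 to 51.1 CPM overlapped. Over all genes tested 6.67% were called lower, and 6573 of 12551 had a negative log2 fold change. Sums of satellite cell (43.8 to 55.6 in WT and 48.5 to 61.3 CPM in KL-/- muscles), pericyte and smooth muscle (345 to 543 and 394 to 487), adipocyte (6.57 to 25.4 and 5.18 to 71.1, from 4 of 6 markers) and erythrocyte markers (3.35 to 9.58 and 3.07 to 9.16, from 1 of 5) overlapped. No counted marker of the lists given here was at 0 in any library. What part such cells have in the levels of *Wls*, *Wnt4* or other Wnt pathway genes was not tested.

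The 10 Frizzled receptors, which bind Wnt proteins at the cell surface, gave 1 call in each direction, both in scarce members of the family. The 2 calls are 20% of the 10, against 14% of all genes, and are not a result about the family. Likewise 20% of the 10 did not overlap between genotypes, against 19.7% of all genes. *Fzd2*, a receptor often paired with *Wnt5a*, was at 3.63, 5.41, 5.30 and 4.09 CPM in WT and 3.21, 2.96, 2.36 and 2.07 CPM in KL-/- replicates 1 to 4. The genotypes did not overlap, and KL-/- replicate 1 lay closest to WT. On the log2 scale the difference was -0.79 (SE 0.19, FDR = 0.0261 by edgeR). The FDR of *Fzd2* rose to 0.0714, 0.0748, 0.0729 and 0.0717 without WT replicate 2, WT replicate 3, KL-/- replicate 3 and KL-/- replicate 4, with log2 fold changes of -0.71, -0.72, -0.74 and -0.69.

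*Fzd10* went the other way. It was at 2.65, 3.75, 3.24 and 2.40 CPM in WT and 5.09, 4.48, 4.10 and 4.67 CPM in KL-/- replicates 1 to 4, again without overlap. The fitted log2 fold change was 0.62 (SE 0.16, FDR = 0.0320 by edgeR). *Fzd10* was called without WT replicate 2 (FDR = 0.0329) and without KL-/- replicate 2 (FDR = 0.0336). Its FDR lay between 0.0554 (without KL-/- replicate 3) and 0.0804 (without KL-/- replicate 4) when any of the other 6 was left out, with log2 fold changes of 0.52 to 0.67. No other annotated gene overlaps *Fzd2* or *Fzd10*.

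**Figure D4:**
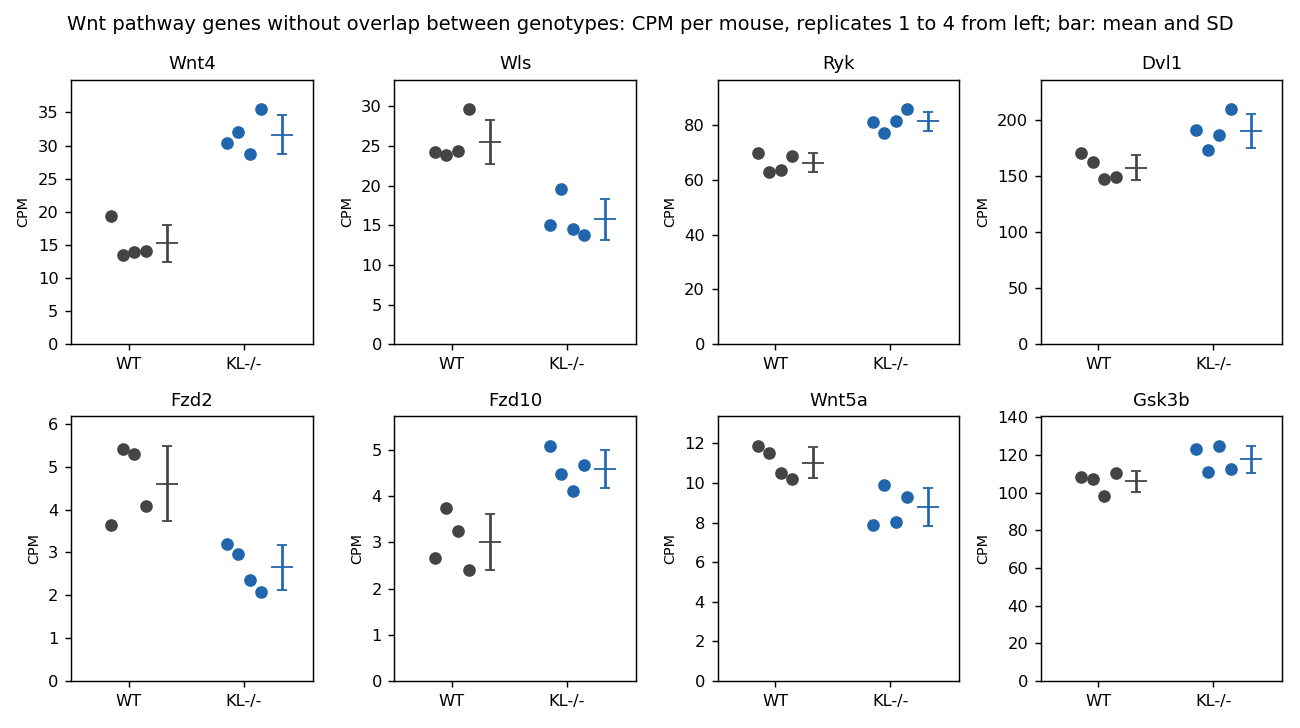
CPM of the 8 Wnt pathway genes without overlap between genotypes, with 1 point per mouse (replicates 1 to 4 from left), the mean and the SD beside them, and all axes from 0. *Wnt4* (13.5 to 19.4 in WT, 28.8 to 35.5 in KL-/-) shows a clear gap, and *Wnt5a* and *Gsk3b*, which were not called, show ranges that nearly touch.

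*Fzd4*, the most abundant Frizzled per length, varied widely between WT mice and was not called by the quasi-likelihood test. The receptor, which also binds the vascular ligand Norrin, was at 75.5, 96.2, 64.9 and 50.9 CPM in WT and 93.5, 109, 114 and 97.3 CPM in KL-/- replicates 1 to 4. WT replicate 2 lay within the KL-/- range, and WT replicate 4 was lowest. In edgeR the log2 fold change of 0.53 (SE 0.17, FDR = 0.0636) became 0.70 (FDR = 0.0256) without WT replicate 2. *Fzd4* was called in 1 of the 8 fits that left out 1 library, and the edgeR FDR reached 0.153 in them. With all libraries, DESeq2 (FDR = 0.0165) and the likelihood ratio test (FDR = 0.0257) called *Fzd4* higher. *Fzd4* made up 36.0% ± 6.51 of the summed receptor level per length in WT and 45.0% ± 3.34 in KL-/- muscle. Of the 8 endothelial markers checked, *Kdr* was called lower (log2 fold change -0.90, FDR = 0.00781), and the sums of 543 to 753 and 520 to 557 CPM overlapped. Over all genes tested 6.67% were called lower.

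*Fzd7*, a receptor of satellite cells, had means of 75.7 ± 9.59 CPM (WT) and 78.8 ± 4.29 CPM (KL-/-). Its log2 fold change was 0.06 (95% interval -0.15 to 0.26), and with library totals it was -0.06. *Fzd9*, at 21.2 ± 1.62 and 20.1 ± 2.42 CPM, had a log2 fold change of -0.07. The other 5 Frizzleds, *Fzd1*, *Fzd3*, *Fzd5*, *Fzd6* and *Fzd8*, had log2 fold changes between -0.43 and 0.38 with FDRs between 0.208 and 0.396. Each of these receptors overlapped between genotypes.

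*Ryk* was the co-receptor that rose. *Ryk* is a Wnt receptor with an inactive kinase domain, known from axon guidance, and was the most abundant of the 5 co-receptors per length. It was at 69.7, 63.0, 63.5 and 68.7 CPM in WT and 81.1, 77.2, 81.4 and 85.8 CPM in KL-/- replicates 1 to 4. The muscles of each genotype were close together and the groups did not overlap. On the log2 scale the difference was 0.30 (SE 0.06, 95% interval 0.16 to 0.43, FDR = 0.0142 by edgeR), and it was 0.30 (FDR = 0.0413) within the shared batch date. With library totals it was 0.18 (FDR = 0.0582), no longer called.

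The Lrp co-receptors of the beta-catenin branch did not pass the test. *Lrp5* was at 47.0 ± 3.54 CPM in WT and 46.1 ± 1.90 in KL-/- muscle, with a log2 fold change of -0.03 (95% interval -0.18 to 0.13). *Lrp6* was at 92.8 ± 7.45 and 93.8 ± 3.35 CPM, with a log2 fold change of 0.02 (95% interval -0.13 to 0.17) that turned to -0.10 with library totals. *Ror1* and *Ror2*, receptor tyrosine kinases for *Wnt5a*, were scarce at 0.395 to 1.94 CPM over all libraries, with log2 fold changes of -0.05 (95% interval -0.87 to 0.77) and -0.11 (-0.93 to 0.71).

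Dishevelled proteins pass the signal on from Frizzled receptors. *Dvl1*, by far the most abundant of the 3 per length, was at 170, 163, 148 and 149 CPM in WT and 191, 173, 187 and 210 CPM in KL-/- replicates 1 to 4. The groups did not overlap, with KL-/- replicate 2 just above WT replicate 1. The fitted log2 fold change was 0.27 (SE 0.07, FDR = 0.0398 by edgeR). *Dvl1* was called without WT replicate 1 (FDR = 0.0428) and without KL-/- replicate 2 (FDR = 0.0137), and the FDR was 0.0679 (without KL-/- replicate 1) to 0.107 (without WT replicate 3) when any of the other 6 was left out. With library totals it was 0.16 (FDR = 0.139). *Dvl1* overlaps *Tas1r3* on the other strand. *Dvl2* and *Dvl3* had log2 fold changes of 0.04 and 0.06, and of -0.08 and -0.06 with library totals.

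In the destruction complex 0 of 6 genes were called by edgeR. At an unadjusted p under 0.05 stood 3 of the 6, *Gsk3a*, *Gsk3b* and *Csnk1a1*, and DESeq2 called 1 of them, *Gsk3a*. Over all genes 4031 of 12551 stood at such a p, and DESeq2 called 19.6%. *Ctnnb1* encodes beta-catenin, and its values of 279, 290, 283 and 258 CPM in WT and 276, 277, 262 and 265 CPM in KL-/- replicates 1 to 4 overlapped. Its log2 fold change was -0.04 with a 95% interval of -0.17 to 0.09. The gene overlaps *Ulk4* on the other strand.

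The kinases of the complex had positive log2 fold changes but did not pass the test. *Gsk3b*, which phosphorylates beta-catenin, was at 109, 107, 98.1 and 110 CPM in WT and 123, 111, 125 and 112 CPM in KL-/- replicates 1 to 4. The groups did not overlap, but the highest WT and the lowest KL-/- muscle were almost level. In edgeR the log2 fold change was 0.15 (95% interval 0.01 to 0.29, FDR = 0.138).

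Its paralog *Gsk3a* had a log2 fold change of 0.29 (FDR = 0.0674) and overlaps an antisense gene. *Csnk1a1*, casein kinase 1 alpha, was at 188, 178, 160 and 173 CPM in WT and 207, 172, 209 and 204 CPM in KL-/- replicates 1 to 4. KL-/- replicate 2 lay among the WT muscles and apart from the other 3 KL-/- muscles. Its log2 fold change of 0.18 (FDR = 0.148) became 0.25 (FDR = 0.0223) without that library. The scaffolds *Apc* and *Axin1* had log2 fold changes of -0.03 (95% interval -0.17 to 0.10) and 0.05 (-0.19 to 0.29).

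The feedback genes that Wnt signalling itself induces gave no call. *Axin2*, the most widely used readout of the branch, was at 18.3, 16.1, 11.7 and 16.1 CPM in WT and 18.7, 14.6, 13.7 and 16.3 CPM in KL-/- replicates 1 to 4. The ranges were almost the same. On the log2 scale the difference was 0.02 (SE 0.14, 95% interval -0.30 to 0.35) and -0.09 with library totals, so the interval allows a rise of up to 0.35 or a fall of up to 0.30 on the log2 scale. An antisense gene overlaps *Axin2*. *Znrf3*, a ubiquitin ligase that removes Frizzleds from the surface, had a log2 fold change of -0.01 (95% interval -0.33 to 0.30). *Nkd1*, an inhibitor that binds Dishevelled, had one of 0.09 (-0.65 to 0.83) at 0.861 to 2.31 CPM. By edgeR, 0 of these 3 feedback genes were called, 0 had an unadjusted p under 0.05, and DESeq2 called 0.

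The TCF/LEF factors, the DNA-binding partners of beta-catenin, gave 0 calls among 3 genes by edgeR and by DESeq2, and 0 at an unadjusted p under 0.05. *Tcf7l1*, a repressor for much of the time and the most abundant of the 3 per length, was at 7.64, 9.02, 7.82 and 7.21 CPM in WT and 8.89, 8.06, 7.96 and 6.67 CPM in KL-/- replicates 1 to 4. The genotypes overlapped throughout. Its log2 fold change was -0.001 with a 95% interval of -0.26 to 0.26. *Tcf7l2* had one of -0.02 (-0.41 to 0.38), and *Tcf7*, at 0.572 to 1.25 CPM, one of 0.12 (-0.48 to 0.72).

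Secreted antagonists, which bind Wnt proteins or Lrp co-receptors outside the cell, were the least even group. By edgeR's quasi-likelihood test 0 of 6 were called, and 2 (*Dkk3* and *Dkk2*) had an unadjusted p under 0.05, as had 4031 of all 12551 genes. DESeq2 (FDR = 0.0347) and the likelihood ratio test (FDR = 0.0139) called *Dkk3* lower. Their median coefficient of variation (SD over mean) between WT muscles was 52.3%, against 17.7% for all 45 genes and 9.85% for all genes tested.

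*Dkk3*, a divergent member of the Dickkopf family, was at 3.10, 8.56, 4.38 and 52.0 CPM in WT and 2.02, 4.77, 2.74 and 1.96 CPM in KL-/- replicates 1 to 4. WT replicate 4 stood far above every other muscle, and KL-/- replicate 2 lay within the WT range. The log2 CPM of *Dkk3* in WT replicate 4 exceeded the mean of the other 3 WT muscles by 3.40, the largest such excess of any of the 12551 genes in that library. The fitted log2 fold change between genotypes was -2.61 (SE 0.88, FDR = 0.0753) and became -0.91 (FDR = 0.160) without WT replicate 4. *Dkk2*, which binds Lrp co-receptors, had a log2 fold change of -0.62 (FDR = 0.141).

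*Sfrp4*, a secreted Frizzled-related protein, was at 0.939, 10.8, 2.06 and 1.69 CPM in WT and 3.21, 1.00, 2.11 and 0.641 CPM in KL-/- replicates 1 to 4. WT replicate 2 was alone on the high side, and the other 7 muscles overlapped. In edgeR the log2 fold change of -1.08 (FDR = 0.357) turned to 0.18 without WT replicate 2. In WT replicate 2 the excess of *Sfrp4* over the other 3 WT muscles was 2.83 on the log2 CPM scale, rank 6 of all genes, and that of *Wnt16* was 3.35, rank 4. The ranks 1, 2, 3 and 5 in that library were held by *Spp1*, *Acp5*, *Mmp9* and *Col12a1*, genes of osteoclasts, macrophages and matrix. *Spp1* was at 44.0 CPM in WT replicate 2 and 0.572 to 1.64 CPM in the other WT muscles. In KL-/- replicates 1 to 4 it was at 5.61, 1.00, 8.83 and 0.679 CPM.

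The remaining 3 antagonists were low and overlapped. *Sfrp5* was at 3.69 ± 0.742 CPM in WT and 4.34 ± 0.254 in KL-/- muscle (log2 fold change 0.24, FDR = 0.318). *Sfrp1* and *Sfrp2* lay at 0.151 to 2.44 CPM, with log2 fold changes of -0.03 and -0.51 and FDRs of 0.964 and 0.568.

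**Figure D5:**
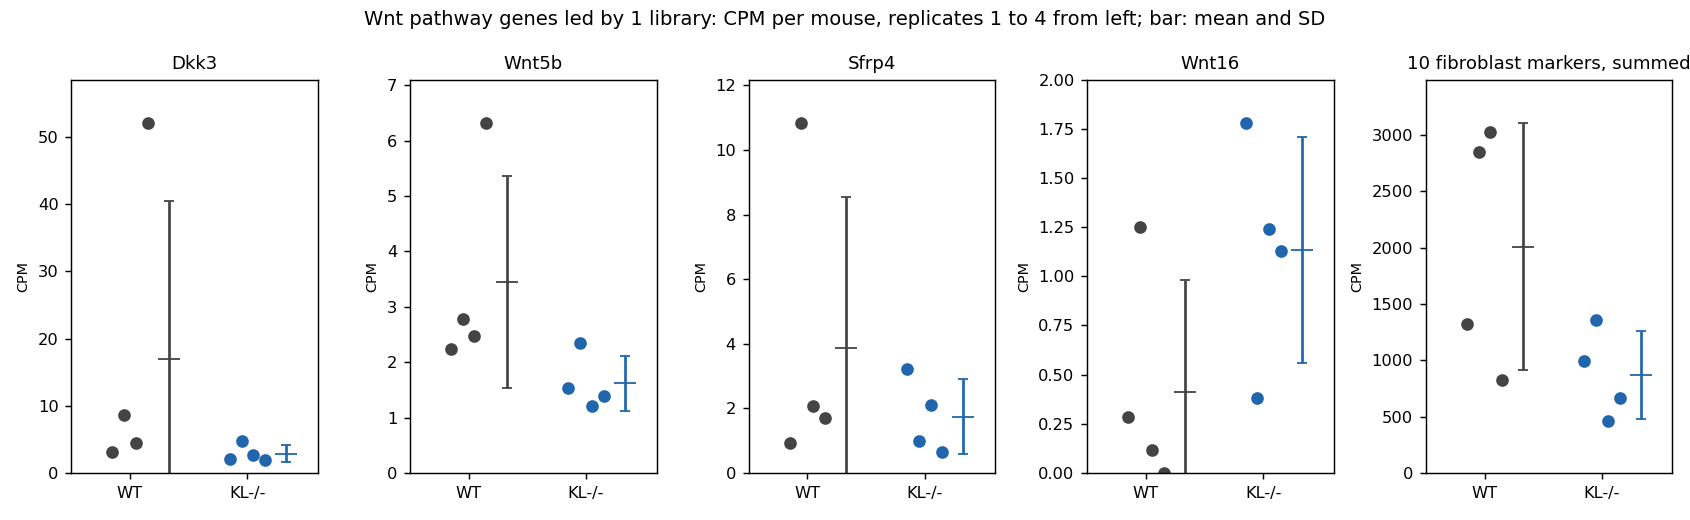
CPM of *Dkk3*, *Wnt5b*, *Sfrp4* and *Wnt16* and the summed CPM of the 10 fibroblast markers, with 1 point per mouse (replicates 1 to 4 from left), mean and SD; the SD bars that pass below 0 are cut at the axis. In *Dkk3* and *Wnt5b* the high point is WT replicate 4 (52.0 and 6.31 CPM), in *Sfrp4* it is WT replicate 2 (10.8 CPM), and the marker sum is lowest among WT muscles in WT replicate 4 (828 CPM).

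A further 97 of 120 listed pathway genes outside the 45 were counted, and 10 of them (10.3%) were called, 6 higher and 4 lower, again near the 14% of all genes. Their median log2 fold change was -0.04. Of 14 counted extracellular modulators *Rspo3*, an R-spondin that raises Wnt responses by keeping Frizzleds at the surface, was called higher. It was at 0.857, 0.555, 0.61 and 0.466 CPM in WT and 0.907, 1.24, 1.37 and 1.13 CPM in KL-/- replicates 1 to 4, with WT replicate 1 just below the lowest KL-/- muscle (log2 fold change 0.89, FDR = 0.0492).

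Of 44 counted intracellular components 4 were called higher and 2 lower. That is 13.6% of the list, near the 14% of all genes, and is not a result about these components as a group. Those higher were *Csnk1e*, a casein kinase that phosphorylates Dishevelled (log2 fold change 0.50, FDR = 0.0197), *Csnk1g2*, a membrane-bound casein kinase (0.26, FDR = 0.0218), *Ctnnbip1*, which blocks the binding of beta-catenin to TCF (0.60, FDR = 0.0243), and *Sox17*, a vascular factor that opposes beta-catenin (0.59, FDR = 0.0352). Those lower were *Cxxc5*, which binds Dishevelled and dampens the signal (-0.75, FDR = 0.0076), and *Nlk*, a kinase of TCF/LEF factors (-0.42, FDR = 0.0120). *Cxxc5* was at 43.8, 43.1, 44.2 and 40.7 CPM in WT and 23.2, 33.1, 20.8 and 25.0 CPM in KL-/- replicates 1 to 4. WT muscles were close together and all above the KL-/- muscles. *Rspo3*, *Cxxc5*, *Csnk1e* and *Ctnnbip1* each overlap an antisense gene.

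Of 20 counted genes of the planar polarity branch 0 were called by edgeR's quasi-likelihood test, with 6 at an unadjusted p under 0.05. Over all genes 14% were called by that test, and 4031 of 12551 stood at an unadjusted p under 0.05. DESeq2 and limma-voom called 0, and the likelihood ratio test called 1 (*Vangl2*, lower). Library totals gave 3 lower calls there (*Daam1*, *Rhoa* and *Vangl2*), and with them 20.9% of all genes were called.

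Of 19 counted textbook beta-catenin targets 1 was called higher and 2 lower. *Myc* was at 2.65, 2.68, 3.13 and 2.22 CPM in WT and 4.57, 11.5, 3.81 and 5.13 CPM in KL-/- replicates 1 to 4, with KL-/- replicate 2 highest (log2 fold change 1.21, FDR = 0.0435), and without that library it was 0.77 (FDR = 0.0142). *Tnfrsf19* (-0.74, FDR = 0.0247) and *Cd44* (-0.97, FDR = 0.0267), a matrix receptor of leukocytes and fibroblasts among other cells, were lower, and *Cd44* overlapped between genotypes by a narrow margin. The 3 calls are 15.8% of the list, near the 14% of all genes, and are not a result about the targets as a group. Of the 19, 6 had positive and 13 negative log2 fold changes, with a median of -0.29, and 6573 of all 12551 genes were negative. DESeq2 called 2 of the targets higher and 4 lower, and it called 19.6% of all genes.

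Several of these 10 calls were lost in fits that left out 1 library. *Cxxc5* and *Nlk* were called in 8 of the 8 fits that left out 1 library, *Csnk1e* in 5, *Csnk1g2*, *Ctnnbip1* and *Tnfrsf19* in 4, *Myc* and *Cd44* in 3, *Sox17* in 2 and *Rspo3* in 1. Without KL-/- replicate 4 the 97 genes gave 0 higher and 2 lower calls, and without KL-/- replicate 2 they gave 11 higher and 7 lower. Over all genes, 6.2% were called without KL-/- replicate 4 and 22% without KL-/- replicate 2, against 14% with all libraries.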

How the data were processed

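TA muscle of 4 WT and 4 KL-/- mice was measured by RNA sequencing. The deposited values are raw counts per gene, which the authors obtained with featureCounts from STAR alignments to mm10 after low-quality alignments had been dropped. Annotation version and strand setting are not given in the sources used here. Groups come from the sample titles, and all per-sample columns of the table were mapped.

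The genotypes were tested with edgeR 4.0.16 under R 4.3.3 (TMM factors, genotype as the only term, quasi-likelihood test, two-sided). Its default filter kept all 12551 genes, and Benjamini-Hochberg adjustment covered all of them. Standard errors were taken from the test statistic. Levels between genes were divided by the exon length in the file. The steps were tested on counts simulated from these libraries. No pair of libraries of the same genotype was a duplicate (chi-square per gene of at least 9.907, where sampling noise gives about 1). Pairs across genotypes were not compared. Alternatives were DESeq2 1.42.0, the likelihood ratio test, limma-voom (limma 3.58.1), the edgeR 3 quasi-likelihood test (added after the data were seen), RLE factors, library totals, other filters, the replicate number as a block and each library left out.

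The 45 genes, the lists of 120 further pathway genes and the marker lists were chosen with earlier results of these data known. Named with every sample's value are genes called, those without overlap between genotypes and the highest per length in each role; genes led by 1 library, and the values of *Cxxc5*, *Rspo3* and *Myc*, were added after values were seen. Gene positions match GENCODE M21 for 45 of 45, and 19 of them overlap a gene on the other strand. Promoters and their windows are RefSeq's, and proteins were not used here. The result of 1 further marker list is not reported here. Intervals at the floor cover counting error only.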

Additional observations from a re-analysis of the deposited data

Results flagged for a closer look

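In 9 of 90 groups of 4 muscles, 1 muscle stood apart from the other 3 by Dixon's test, where chance gives about 4.5. In WT muscle these were *Wnt4* in replicate 1 (19.35 CPM), *Sfrp4* (10.82 CPM) and *Wnt11* (12.3 CPM) in replicate 2, and *Wls* (29.66 CPM), *Dkk3* (52.03 CPM) and *Wnt5b* (6.311 CPM) in replicate 4, all on the high side. In KL-/- muscle they were *Csnk1a1* (172.1 CPM, low) and *Tcf7l2* (6.393 CPM, high) in replicate 2 and *Dkk2* (0.9532 CPM, low) in replicate 3, whose batch date differs from the rest. For *Wnt4* the outlying muscle lay on the side of the other genotype, and for *Wls* it lay on the far side from it. Without these muscles the log2 fold changes were 1.19 for *Wnt4* and -0.62 for *Wls*, and both were called.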

How the results depend on the processing

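Under 17 alternatives, *Wnt4* and *Wls* were called in each, *Ryk* in all but library totals (FDR = 0.0582), and *Fzd2*, *Fzd10* and *Dvl1* each lost their call in some. RLE factors, at least 10 counts in every library (42 members tested), limma-voom and the edgeR 3 test left the members' counts at 4 higher and 2 lower. The fit with no filter repeats the main fit, because the default filter removed no gene, so its agreement was fixed in advance. Library totals gave 1 higher and 4 lower among members and 3 higher and 15 lower among the other pathway genes. DESeq2 gave 6 members higher and 5 lower, and 11 higher and 7 lower among other pathway genes. The likelihood ratio test gave 5 members higher and 4 lower, and 8 higher and 7 lower among other pathway genes. Over all genes, library totals called 20.9%, DESeq2 19.6% and the likelihood ratio test 16.9%, against 14% by the quasi-likelihood test with TMM factors. With 1 library left out, members ranged from 2 to 6 higher and 1 to 3 lower, and other pathway genes from 0 to 11 higher and 2 to 7 lower. The share called over all genes ranged from 6.07% to 22% in those fits. The causes of these differences were not tested.

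With the replicate block, 2 members were higher (*Wnt4* and *Ryk*) and 1 lower (*Wls*), 1 other pathway gene was higher and 2 were lower, and 671 genes (5.35%) were called in all. The numbers are not known to pair the mice: correlations of same-numbered deviations were -0.144, 0.177, -0.36 and 0.017, and 0 of 4 replicates matched best with their own number.

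Of the genes that were not called, some turned direction. With library totals, *Axin2* was at -0.091, *Fzd7* at -0.058, *Lrp6* at -0.101, *Nkd1* at -0.025, *Axin1* at -0.067, *Dvl2* at -0.081 and *Dvl3* at -0.059. *Tcf7l1* turned to 0.006 with RLE factors and with DESeq2 and to 0.003 with limma-voom, which also turned *Ror1* (0.143), *Ror2* (0.008) and *Tcf7l2* (0.021), and the replicate block turned *Tcf7l2* to 0.005. With 1 library left out, log2 fold changes ranged from -0.092 to 0.11 for *Axin2*, -0.019 to 0.127 for *Fzd7*, -0.027 to 0.060 for *Lrp6*, -0.099 to 0.395 for *Nkd1*, -0.004 to 0.155 for *Axin1*, -0.035 to 0.098 for *Dvl2* and -0.012 to 0.115 for *Dvl3*. They ranged from -0.057 to 0.072 for *Tcf7l1*, -0.166 to 0.084 for *Tcf7l2*, -0.048 to 0.278 for *Tcf7*, -0.155 to 0.070 for *Znrf3*, -0.054 to 0.004 for *Apc*, -0.363 to 0.202 for *Ror1* and -0.371 to 0.198 for *Ror2*, and from -1.580 to 0.176 for *Sfrp4*, -0.799 to 0.068 for *Sfrp2* and -0.346 to 0.151 for *Sfrp1*. What part depth has in the spread of the scarcer genes was not tested.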

Other observations

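Of the called pathway genes outside the ligand and receptor families, 2 more are given by muscle here. *Nlk*, the kinase of TCF/LEF factors, was at 16.1, 15.2, 15.0 and 14.9 CPM in WT and 11.9, 11.6, 10.2 and 12.1 CPM in KL-/- replicates 1 to 4. The WT muscles lay within a narrow range above all KL-/- muscles. *Ctnnbip1*, the small inhibitor of beta-catenin, was at 29.8, 32.2, 36.9 and 24.8 CPM in WT and 39.4, 43.0, 48.0 and 56.8 CPM in KL-/- replicates 1 to 4, also without overlap. *Ccnd1*, a cell cycle gene of the target list, had a log2 fold change of -1.08 (FDR = 0.0534 by edgeR's quasi-likelihood test) and was not called. DESeq2, the likelihood ratio test and limma-voom called it.

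*Wls* gave 79.3% ± 1.44 (SD, n = 4) of the summed level per length of *Wls* and *Porcn* in WT and 66.6% ± 7.13 in KL-/- muscle. KL-/- replicate 2, at 76.6%, lay closest to the WT range of 77.2% to 80.4%.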
